A study of Arabidopsis thaliana with 72 samples.

Results

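The comparison described here set leaves of the carbonate-tolerant Arabidopsis thaliana deme A1(c+) against leaves of the carbonate-sensitive deme T6(c−), both collected 3 h after hydroponic plants had been moved to nutrient solution buffered at pH 8.3. A deme is a local natural population, and both lines come from Catalonia. The samples were chosen by their labels, which assign 12 of the 72 samples of the series to these 2 groups (genotype Tolerant or Sensitive, pH 8.3 in an organic buffer, 3 h). The plants were 15 days old when the treatment began, were grown under the same day length, and received diluted Hoagland solution buffered with MES and BTP without added bicarbonate. The other groups used below were the same demes at pH 5.9 for 3 h, the starting pH of the culture, and at pH 8.3 for 48 h. The series also holds plants given 10 mM NaHCO3 at pH 8.3 (bic), which served only to estimate the spread between replicates and to check libraries. Each group had 6 samples, read from their titles as 2 biological replicates with 3 technical replicates each, although the methods mention both 2 and 3 biological replicates. The table holds 1 column per biological replicate, so that the 12 samples became 4 columns, called libraries here. Leaves of several plants were pooled in a replicate, and a whole-leaf sample cannot tell fewer cells of a type from less RNA per cell. Expression was given for 18603 genes as CPM, the reads of a gene scaled to the same library total, and 1 CPM stood for 98.8 to 108 reads in these 4 libraries.

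Raising the pH of the root medium lowers the solubility of iron, zinc and phosphate and weakens the proton gradient that drives uptake across the root plasma membrane. Leaves meet the change through the supply and the signals that reach them from the root. Leaf genes known to follow iron supply include the Ib bHLH transcription factors and the IMA peptides, which are expressed when iron is short, and the ferritins, which store iron when it is ample. Natural populations also carry fixed differences that no treatment made, among them the presence or absence of whole genes in the immune receptor families. A difference between demes under alkalinity can therefore already stand at pH 5.9, and the main results are given with the values at that pH.

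The 4 libraries were first set against their labels. In the pH 5.9 libraries of 3 h, 19 genes reached at least 5 CPM in both A1(c+) libraries and stayed below 0.1 CPM in both T6(c−) libraries, and 23 genes showed the reverse. At pH 8.3 and 3 h, both A1(c+) libraries held all 19 A1(c+) genes and 0 of the 23 T6(c−) genes above 1 CPM. T6(c−) replicate 1 held 0 of 19 and 23 of 23. T6(c−) replicate 2 held 23 of 23, but also 7 of the 19 A1(c+) genes, at 1.16 to 4.87 CPM against 0.0151 to 0.0654 CPM in replicate 1, which was 15.7 to 40.1% of the A1(c+) mean. Where these transcripts came from was not tested, and results are therefore also given without this library. The library labelled T6(c−) pH 8.3, 48 h, replicate 1 held 10 of 19 and 11 of 23, which matched neither deme.

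The libraries also differed in how reads were spread over genes. The 100 most abundant genes took 32.0 and 34.1% of reads in A1(c+) and 24.6 and 25.1% in T6(c−), and 142 and 137 genes had 3 reads or fewer in A1(c+) against 64 and 25 in T6(c−). The median log2 fold change over all genes, A1(c+) against T6(c−), was -0.31 at pH 8.3 and 3 h, against -0.07 at pH 5.9, and came to 0.03 after TMM scaling (a factor per library from trimmed ratios) and 0.03 after quantile scaling (equal distributions in all libraries). The spread within a group was small in both groups of the comparison, whose mean variance on the log2 scale was 0.112 for A1(c+) and 0.102 for T6(c−). It was 0.00937 in T6(c−) at pH 5.9, where replicates differed little more than sampling of reads allows (mean chi-square 2.41 per gene against 199 for A1(c+) at pH 5.9). The replicates are not stated to be separate cultures, and p-values measure only the spread between these samples.

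At pH 8.3 and 3 h, 2338 genes were differentially expressed genes (DEGs) between the demes, meaning that the adjusted p was below 0.05 and the fold change, up or down, over 1 log2 unit, which was 12.6% of the genes tested. A1(c+) was higher in 366 of them (1.97%) and lower in 1972 (10.6%). The surplus of lower genes followed the scaling. With TMM, 677 genes were higher (3.64%) and 1074 lower (5.77%), and with quantile scaling 852 were higher (4.58%) and 783 lower (4.21%). Of the 366 higher DEGs, 353 were called under all 3 scalings, and of the 1972 lower DEGs 727 were. Without T6(c−) replicate 2, 219 genes were higher (1.18%) and 891 lower (4.79%). Both A1(c+) libraries lay above both T6(c−) libraries in 3182 genes (17.1%) and below both in 12216 (65.7%). An exact permutation test of 2 against 2 libraries cannot go below p = 0.333 for a gene, so that calls rest on limma's test across all genes.

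The difference between the demes changed with the level of the gene. Among the 801 genes with a mean of up to 1 CPM the median log2 fold change was -1.15. Of them 236 were lower in A1(c+) and 39 higher, beside 10.6% lower and 1.97% higher over all genes. The median was -0.35 in the 5530 genes between 4 and 16 CPM and 0.09 in the 482 genes above 256 CPM, of which 24 were higher and 10 lower. In CPM without TMM or quantile scaling, the most abundant transcripts were thus on balance slightly higher in A1(c+), and the scarce ones lower. The genes of a library share 1 total in CPM, so that these shifts are not independent of each other.

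**Figure D1:**
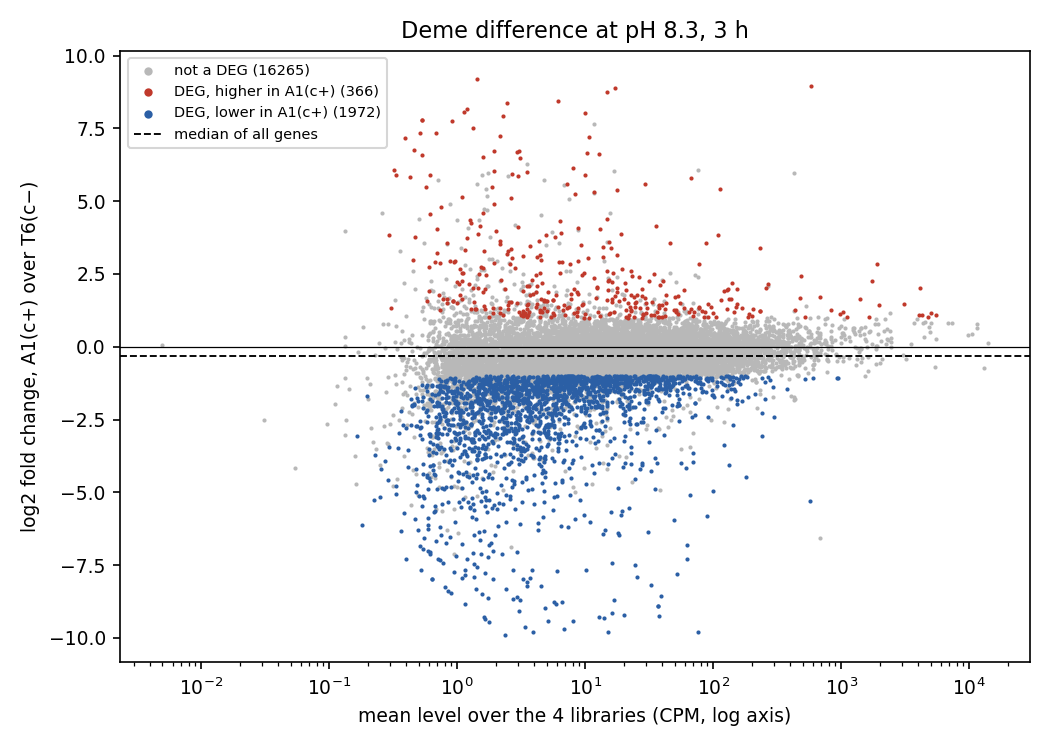
Difference between the demes at pH 8.3 and 3 h for each of 18603 genes, plotted as the log2 fold change of A1(c+) against T6(c−) over the mean level of the 4 libraries in CPM (log axis), with 366 higher and 1972 lower DEGs coloured. The cloud lies below 0 at low levels, where the median of the 801 genes up to 1 CPM is -1.15, and reaches 0.09 above 256 CPM.

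The largest differences in favour of A1(c+) were in genes that T6(c−) hardly expressed. Among the 10 higher DEGs with the largest fold change, a mean of at least 5 CPM in A1(c+) and no overlap between the groups, 3 are members of immune receptor or related families. AT4G16215 (chr4:9179244-9179833, minus strand, TAIR10.1), an uncharacterised protein, was the most abundant with 1263 and 1066 CPM in A1(c+) and 2.65 and 2.07 CPM in T6(c−) (log2 fold change 8.95 ± 0.37, adjusted p = 4.48e-08). AT5G36930, an intracellular receptor of the TIR-NBS-LRR class, had 34.6 and 33.4 CPM in A1(c+) and 0.0654 and 0.0789 CPM in T6(c−) (log2 fold change 8.89 ± 0.61, adjusted p = 3.33e-06), and AT1G72920, a TIR domain protein, had 19.1 and 20.8 CPM in A1(c+) and 0.0553 and 0.107 CPM in T6(c−). The libraries of the demes were far apart in each case. RLP42 (chr3:9116684-9119804, minus strand), a receptor-like protein that senses fungal polygalacturonases, had 23.4 and 19.1 CPM in A1(c+) and 0.166 and 0.125 CPM in T6(c−) (log2 fold change 7.19 ± 0.52, adjusted p = 4.96e-06), and its reads gave a ratio of 151 with a 95% counting interval of 105 to 226. The remaining genes of this group were AT2G05642 (OB-fold nucleic acid-binding protein, 8.77), AT2G13550 (uncharacterised, 8.43), AT1G52800 (2-oxoglutarate-dependent oxygenase, 6.73), AT5G56920 (cystatin superfamily, 6.69), AT2G24210 (terpene synthase 10, 6.64) and AT3G29375 (XH domain protein, 6.63). All 10 were higher DEGs at pH 5.9 as well. AT2G24210, the terpene synthase, had 22.1 and 19.1 CPM in A1(c+) at pH 8.3 and 5.13 and 7.65 CPM at pH 5.9, with 0.397 and 0.107 CPM and 0.102 and 0.127 CPM in T6(c−). AT3G29375 held 0.0855 and 0.766 CPM in T6(c−) and lost its call without A1(c+) replicate 1 or 2 or T6(c−) replicate 1, when its adjusted p passed 0.05, while the other 9 were called without each library in turn.

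The 10 largest differences in favour of T6(c−), chosen by the same rule, were in genes with almost no reads in A1(c+). AT3G22235, a small cysteine-rich transmembrane protein of a family linked to stress tolerance, had 0.177 and 0.165 CPM in A1(c+) and 133 and 173 CPM in T6(c−) (log2 fold change -9.79 ± 0.52, adjusted p = 4.78e-07). HAC4 (chr1:20932451-20938352, minus strand), a histone acetyltransferase of the CBP family, had 0.0152 and 0.0350 CPM in A1(c+) and 14.6 and 17.4 CPM in T6(c−), and its reads gave a ratio of 796 with a 95% counting interval of 311 to 2920. These intervals cover counting error only. AT5G21020 (uncharacterised) had 0.0962 and 0.155 CPM in A1(c+) and 71.4 and 78.9 CPM in T6(c−), and AT3G43833 (uncharacterised) had 0.0152 and 0.0751 CPM in A1(c+) and 30.8 and 29.9 CPM in T6(c−). The libraries of the demes lay far apart (-9.26 and -9.81), although the A1(c+) libraries of AT3G43833 themselves differed, at a level of few reads. The others were AT3G44430 (uncharacterised, -9.80), AT2G24945 (uncharacterised, -9.69), AT5G38020 (S-adenosylmethionine-dependent methyltransferase, -9.61), AT3G11000 (DCD domain protein, -9.41), AT5G53700 (RNA-binding protein, -9.30) and AT4G12100 (cullin family, -9.31), which alone lost its call when any library was left out. At pH 5.9, 9 of the 10 were lower DEGs, and AT5G38020 had 1.05 and 0.416 CPM in A1(c+) and 7.56 and 7.60 CPM in T6(c−) (log2 fold change -3.52 ± 1.79, adjusted p = 0.217). Its level in A1(c+) was thus 0.00506 and 0.0150 CPM at pH 8.3, with 1 read in both libraries together and a read ratio of 1360 (95% counting interval 243 to 53600). AT3G44430 also had 1 read in A1(c+) (ratio 1540, 275 to 60700) and AT3G11000 had 2 (ratio 1020, 283 to 8450), so that their fitted fold changes depend on the offset of 0.5 reads in the values.

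Genes with 3 reads or fewer in both libraries of a deme and at least 5 CPM in both of the other numbered 13 when A1(c+) was the silent deme and 0 when T6(c−) was. With a limit of 1 CPM the numbers were 57 and 10. T6(c−) replicate 2, which held A1(c+) transcripts, lowers the count for T6(c−). With T6(c−) replicate 1 alone and both A1(c+) libraries the numbers were 13 and 7 at 5 CPM and 58 and 35 at 1 CPM, and with 1 A1(c+) library at a time 17 to 23 and 7 to 8 at 5 CPM and 77 to 90 and 38 to 40 at 1 CPM. Of the 57, 34 also had 3 reads or fewer in A1(c+) at pH 5.9, and all 10 did so in T6(c−). CYP77B1 and TT8 were the only members of the 57 above 1 CPM in both A1(c+) libraries at pH 5.9. Reads that failed to align to the reference genome because an allele differs from it, or is missing, cannot be told apart from lower expression in these values.

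A large part of the difference was already present at pH 5.9. There, 1079 genes were DEGs (5.80%), 502 higher (2.70%) and 577 lower (3.10%) in A1(c+). Of the 366 genes higher at pH 8.3, 233 were also higher DEGs at pH 5.9, which was 63.7% of the pH 8.3 list and 46.4% of the pH 5.9 list. Of the 1972 lower genes, 497 were lower DEGs at pH 5.9, 25.2% of the pH 8.3 list and 86.1% of the pH 5.9 list. The 4 pH 8.3 and 4 pH 5.9 libraries are different samples, 0 genes were DEGs in opposite directions, and 362 of the 366 higher and 1908 of the 1972 lower genes had the same sign. Across the 18603 genes, which are not independent replicates, the log2 fold changes at both pH values had a Pearson r of 0.827. In 31 of the higher and 324 of the lower DEGs the log2 fold change at pH 5.9 was within 0.5 of 0.

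**Figure D2:**
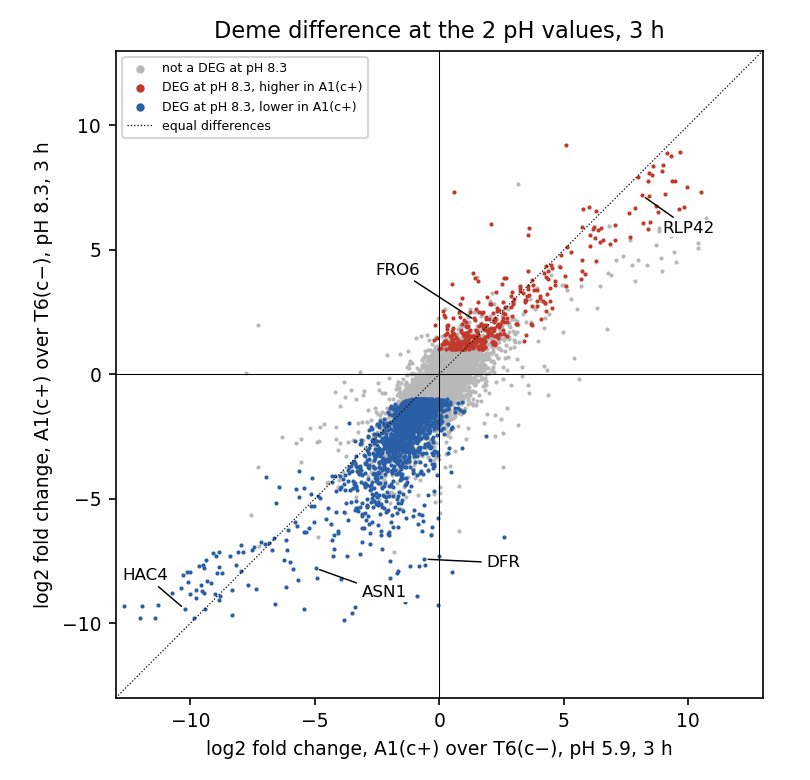
Log2 fold change of A1(c+) against T6(c−) at pH 8.3 and 3 h (vertical axis) over the same quantity at pH 5.9 and 3 h (horizontal axis) for 18603 genes, with DEGs at pH 8.3 coloured, 5 genes named and a dotted line where both differences are equal. RLP42 and HAC4 lie near the diagonal, whereas DFR lies at -0.61 on the horizontal and -7.43 on the vertical axis.

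Whether the difference itself changed with pH was tested as the interaction of deme and pH at 3 h. In the fit that shared the spread of 10 groups, 0 genes passed (0.00%), limma gave an unadjusted p below 0.05 for 1626, and the lowest adjusted p was 0.174. In the fit of the 4 groups at 3 h alone, 481 genes passed (2.59%), 37 with a log2 difference that shifted towards A1(c+) at pH 8.3 (0.199%) and 444 that shifted towards T6(c−) (2.39%). The count thus rested on which groups set the spread. In CPM the interaction had a median of -0.25 over all genes, against 0.03 with TMM and 0.02 with quantile scaling. The fit of 4 groups was not repeated with those scalings. The 3 genes with the lowest interaction p were AT4G27652, TLP-3 and BOR5. AT4G27652 (uncharacterised) had 12.7 and 15.4 CPM in A1(c+) and 5.34 and 4.84 CPM in T6(c−) at pH 8.3 and 4.27 and 3.94 CPM in A1(c+) and 4.31 and 4.41 CPM in T6(c−) at pH 5.9 (log2 1.54 ± 0.22, adjusted p = 0.174 for the interaction). The A1(c+) libraries at pH 8.3 lay above the other 6. BOR5, an anion exchanger of the borate transporter family, had 1.04 and 1.21 CPM in A1(c+) and 7.66 and 9.28 CPM in T6(c−) at pH 8.3 and 1.46 and 2.43 CPM in A1(c+) and 2.43 and 2.35 CPM in T6(c−) at pH 5.9. TLP-3, a thaumatin-like protein, had 0.866 and 1.02 CPM in A1(c+) and 4.95 and 4.67 CPM in T6(c−) at pH 8.3 and 2.24 and 2.30 CPM in A1(c+) and 3.08 and 2.91 CPM in T6(c−) at pH 5.9. In BOR5 and TLP-3 the T6(c−) values were above and the A1(c+) values below those at pH 5.9, and both genes were lower DEGs in A1(c+) at pH 8.3 (-2.91 and -2.36).

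Seen within each deme, the 3 h at pH 8.3 called more genes in A1(c+) than in T6(c−). In A1(c+), 62 genes were higher (0.333%) and 606 lower (3.26%) at pH 8.3 than at pH 5.9. In T6(c−) 9 were higher (0.0484%) and 5 lower (0.0269%). These counts share their libraries with the comparison of the demes and are not separate evidence for it, and a call in A1(c+) without a call in T6(c−) does not show a difference between them. At 48 h of pH 8.3, 383 genes were DEGs between the demes (2.06%), among them 116 of the 366 higher and 151 of the 1972 lower genes of 3 h. The library labelled T6(c−) replicate 1 is part of that contrast, and the 48 h groups varied more, with a mean variance of 0.740 and 0.677.

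The most uniform lower group was a set of 7 genes from the last part of anthocyanin synthesis. Flavonoids are made from phenylpropanoids by chalcone synthase (CHS), chalcone isomerase (CHI) and flavanone 3-hydroxylase (F3H), and the branch to the red anthocyanins runs through F3'H, DFR and LDOX, sugar and acyl transfer by UGT79B1, UGT75C1 and 5MAT, and delivery to the vacuole with the glutathione transferase TT19. Of 24 measured flavonoid genes, 12 were lower in A1(c+) (50.0% beside 10.6% over all genes) and 0 higher, the median of their log2 fold changes being -1.48 beside -0.31 over all genes. The lower genes were 10 of the 13 enzymes and 2 of the 11 regulators. The 7 genes named above from F3'H to TT19 were all lower, a subset singled out after its values were seen. They were lower under TMM and quantile scaling too. UGT78D2, another sugar transfer enzyme of the list, was left out of the 7 and did not pass. Over the 24 genes TMM called 9 lower and quantile scaling 10, beside 5.77% and 4.21% of all genes.

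The anthocyanin genes differed by much more than the replicates did. DFR, dihydroflavonol reductase (chr5:17164093-17166032, minus strand), had 0.137 and 0.255 CPM in A1(c+) and 32.9 and 31.4 CPM in T6(c−) (log2 fold change -7.43 ± 1.23, adjusted p = 0.00159). LDOX, which makes the coloured anthocyanidins (chr4:12004726-12006209, minus strand), had 0.511 and 0.746 CPM in A1(c+) and 30.6 and 32.0 CPM in T6(c−) (log2 fold change -5.66 ± 1.06, adjusted p = 0.00302). TT19 had 1.23 and 1.16 CPM in A1(c+) and 36.8 and 32.6 CPM in T6(c−) (log2 fold change -4.86 ± 0.65, adjusted p = 0.000492), and its locus overlaps another annotated gene, from which reads without strand cannot be told apart. The A1(c+) libraries were near the floor for DFR and the T6(c−) libraries lay together for all 3 genes. 5MAT had 0.0354 and 0.0951 CPM in A1(c+) and 10.6 and 13.6 CPM in T6(c−) (-7.69), UGT79B1 had 0.157 and 0.205 CPM in A1(c+) and 13.8 and 11.6 CPM in T6(c−) (-6.14), UGT75C1 had 3.25 and 3.56 CPM in A1(c+) and 32.3 and 27.5 CPM in T6(c−) (-3.13) and F3'H had 0.663 and 0.486 CPM in A1(c+) and 9.75 and 8.13 CPM in T6(c−) (-3.97). Summed over the 7 genes, A1(c+) held 5.98 and 6.50 CPM and T6(c−) 166.9 and 156.8 CPM.

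Upstream enzymes and UGT78D1, an enzyme of the flavonols, differed less. CHI had 6.41 and 7.97 CPM in A1(c+) and 19.5 and 20.7 CPM in T6(c−) (-1.49, adjusted p = 0.0327), F3H had 48.3 and 45.6 CPM in A1(c+) and 119 and 109 CPM in T6(c−) (-1.28, adjusted p = 0.0458) and UGT78D1, which adds rhamnose to flavonols, had 24.0 and 24.9 CPM in A1(c+) and 65.8 and 70.0 CPM in T6(c−) (-1.47, adjusted p = 0.0152). CHS, the entry enzyme, had 56.8 and 88.0 CPM in A1(c+) and 192 and 182 CPM in T6(c−) and did not pass (adjusted p = 0.0584). Of the regulators, TT8, the bHLH protein of the MYB-bHLH-WD40 complex that switches on DFR and LDOX, had 0.0253 and 0.00501 CPM in A1(c+) and 2.58 and 2.03 CPM in T6(c−) (log2 fold change -7.67 ± 1.29, adjusted p = 0.00174), with 2 reads in both A1(c+) libraries together and a read ratio of 227 (95% counting interval 62.6 to 1880), and its partner EGL3 had 0.754 and 1.40 CPM in A1(c+) and 5.19 and 7.22 CPM in T6(c−) (-2.58, adjusted p = 0.00563). The MYB partner PAP1 had 28.0 and 17.5 CPM in A1(c+) and 55.7 and 40.2 CPM in T6(c−) (adjusted p = 0.339) and the WD40 partner TTG1 had 35.0 and 35.5 CPM in A1(c+) and 36.1 and 35.4 CPM in T6(c−) (adjusted p = 0.939). TT8 and EGL3 were thus lower in A1(c+), the only 2 of the 11 regulators called, and PAP1 and TTG1 did not pass the test.

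At pH 5.9, 0 of the 24 flavonoid genes were DEGs, and the median over the 7 anthocyanin genes was -0.61 against -5.66 at pH 8.3. DFR at pH 5.9 had 12.5 and 13.5 CPM in A1(c+) and 20.1 and 19.7 CPM in T6(c−), LDOX had 12.5 and 13.8 CPM in A1(c+) and 21.4 and 21.2 CPM in T6(c−) and TT8 had 1.03 and 1.25 CPM in A1(c+) and 1.82 and 1.53 CPM in T6(c−). The 7 anthocyanin genes summed to 67.6 and 83.2 CPM in A1(c+) and 106.0 and 107.0 CPM in T6(c−) there. In A1(c+) all 7 were lower at pH 8.3 than at pH 5.9 (median -4.41), and in T6(c−) 0 were DEGs (median 0.62). The interaction of deme and pH had an unadjusted limma p below 0.05 for 7 of 7, beside 1626 of all 18603 genes. The 7 were chosen after their values were seen, so that this is no separate support. For DFR the interaction was log2 -6.81 ± 1.74, adjusted p = 0.417 in the main fit. In the fit of 4 groups 9 of the 24 flavonoid genes passed, all shifted towards T6(c−), beside 2.39% of all genes. At 48 h of pH 8.3 the A1(c+) libraries lay far apart. DFR had 20.8 and 0.396 CPM in A1(c+) and 3.02 and 1.65 CPM in T6(c−). LDOX had 20.4 and 0.666 CPM in A1(c+) and 4.83 and 2.05 CPM in T6(c−). TT8 had 2.64 and 0.0596 CPM in A1(c+) and 0.307 and 0.307 CPM in T6(c−). T6(c−) replicate 1 of 48 h matched neither deme in the genes that separated them. Without T6(c−) replicate 2, 8 flavonoid genes were lower DEGs.

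**Figure D3:**
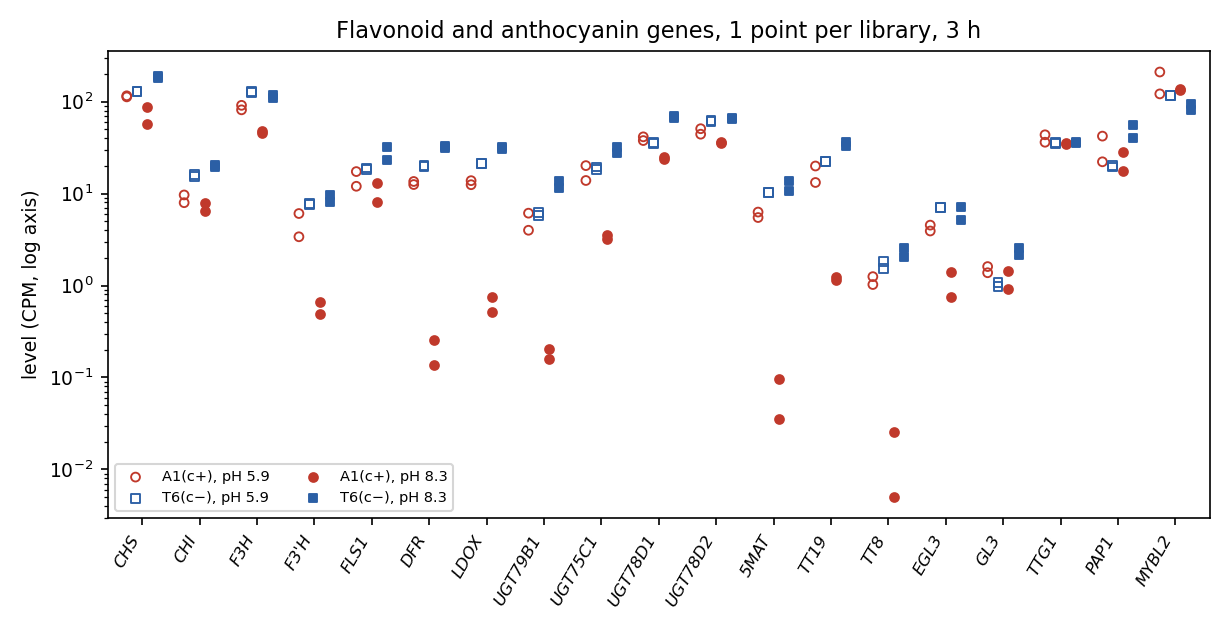
Level of 19 flavonoid genes in CPM (log axis) in the 8 libraries of both demes at pH 5.9 (open) and pH 8.3 (filled), 3 h, with a point for each library, red for A1(c+) and blue for T6(c−). The A1(c+) points at pH 8.3 stand apart below the other 6 for DFR, LDOX, UGT79B1, 5MAT and TT8, and lie among them for TTG1.

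The promoters of 4 of these genes are shown because the genes were lower together, 3 of them known targets of the complex and the fourth, TT8, a member of it; they were chosen after their values were seen. Each is the 150 bases before the annotated start in the RefSeq annotation of TAIR10.1, read 5′ to 3′ on the strand of the gene, with capitals marking CACGTG, the G-box that bHLH proteins bind, and ANCNNCC, a MYB motif, on either strand.
DFR promoter (chr5:17166033-17166182, minus strand): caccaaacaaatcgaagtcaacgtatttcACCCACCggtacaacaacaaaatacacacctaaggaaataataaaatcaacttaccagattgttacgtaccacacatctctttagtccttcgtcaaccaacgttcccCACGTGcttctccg
LDOX promoter (chr4:12006210-12006359, minus strand): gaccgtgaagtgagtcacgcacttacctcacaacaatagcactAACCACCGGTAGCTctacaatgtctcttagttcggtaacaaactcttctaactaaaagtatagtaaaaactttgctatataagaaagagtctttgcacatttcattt
TT19 promoter (chr5:5658266-5658415, plus strand): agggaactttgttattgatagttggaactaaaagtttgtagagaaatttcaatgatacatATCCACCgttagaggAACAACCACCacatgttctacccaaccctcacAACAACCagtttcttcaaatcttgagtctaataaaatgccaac
TT8 promoter (chr4:6181731-6181880, plus strand): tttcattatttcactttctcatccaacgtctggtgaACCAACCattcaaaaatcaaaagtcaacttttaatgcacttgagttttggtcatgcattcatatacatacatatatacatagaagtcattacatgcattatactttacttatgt
ANCNNCC was found in 7 of the 8 promoters of the 7 anthocyanin genes and TT8, against 6164 of 18534 promoters of the same length (33.3%), and CACGTG in 2 of 8 against 1050 of 18534 (5.67%). The letters are a description of the sequence, and binding was not measured.

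Genes of the light-harvesting antenna were higher in A1(c+). Antenna proteins bind chlorophyll and pass light energy to photosystems I and II. Of 38 measured genes of the photosystems, the antenna and the small subunit of Rubisco, 12 were higher in A1(c+) (31.6% beside 1.97% over all genes) and 0 lower, the median log2 fold change was 0.81, and both A1(c+) libraries lay above both T6(c−) libraries in 35, as they did in 17.1% of all genes. By part, 8 of 17 antenna genes and 4 of 21 photosystem or Rubisco genes were higher. With TMM scaling 27 of the 38 were higher and the median was 1.15, and with quantile scaling 5 were higher and the median was 0.32, 0 being lower in either, beside 3.64% and 4.58% of all genes higher.

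LHCB2.2, an antenna protein of photosystem II, had 6487 and 6657 CPM in A1(c+) and 1557 and 1676 CPM in T6(c−) (log2 fold change 2.02 ± 0.19, adjusted p = 3.77e-05), and LHCB1.4 had 2486 and 3253 CPM in A1(c+) and 547 and 654 CPM in T6(c−) (log2 fold change 2.25 ± 0.31, adjusted p = 0.000585). PSBQ1 and PSBQ2, subunits of the oxygen-evolving complex, had 2164 and 2114 CPM and 2803 and 2906 CPM in A1(c+) against 639 and 728 CPM and 1074 and 1061 CPM in T6(c−). These 4 genes were called under the 3 scalings and without each library in turn. LHCB3 (1.17), LHCB4.2 (1.45), LHCB6 (1.11), LHCB5 (1.01) and LHCA2 (1.08) were called in the main fit and lost under quantile scaling. LHCB4.3 had 78.8 and 90.7 CPM in A1(c+) and 34.3 and 33.0 CPM in T6(c−) (1.33), a call lost without A1(c+) replicate 2 or either T6(c−) library. LHCB5 was lost without the same libraries and LHCB6 without A1(c+) replicate 2. The Rubisco gene RBCS1A had 14733 and 14675 CPM in A1(c+) and 12627 and 14415 CPM in T6(c−) (adjusted p = 0.746), and PSBS, which dissipates excess light, had 1751 and 1819 CPM in A1(c+) and 2420.0 and 2361 CPM in T6(c−) (adjusted p = 0.241).

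The 17 antenna genes together took 110300 and 123700 CPM in A1(c+) and 63310 and 65200 CPM in T6(c−) at pH 8.3. At pH 5.9 the sums were 93050 and 99650 CPM in A1(c+) and 79010 and 77120 CPM in T6(c−). The groups did not overlap at either pH. Of the 38 genes 4 were higher DEGs at pH 5.9, LHCB2.2, LHCB1.4, PSBQ1 and LHCB4.3, beside 2.70% of all genes. Several LHCB genes are near-identical copies, so that the split of reads between them is uncertain, and the deme difference between copies was uneven: LHCB1.1 had 4615 and 5228 CPM in A1(c+) and 3765 and 3980.0 CPM in T6(c−) (adjusted p = 0.243) and LHCB2.1 had 469 and 510.0 CPM in A1(c+) and 487 and 479 CPM in T6(c−) (adjusted p = 0.959).

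**Figure D4:**
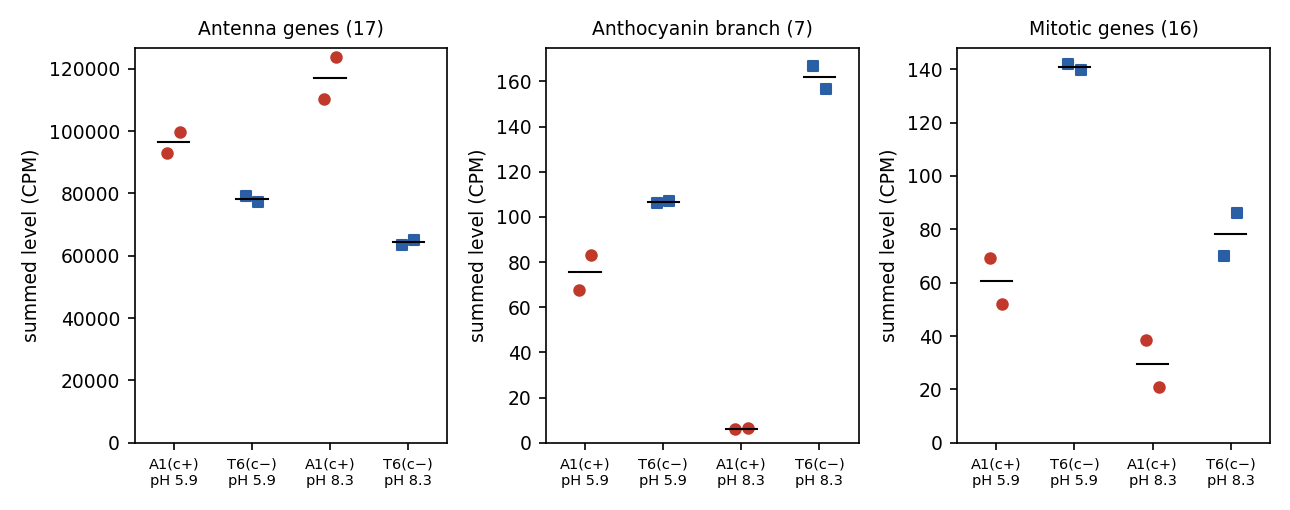
Summed level in CPM (linear axes from 0) of 17 antenna genes, 7 anthocyanin genes and 16 mitosis genes in both demes at pH 5.9 and pH 8.3, 3 h, with a point per library and a bar at the mean of 2. The anthocyanin sum is 5.98 and 6.50 CPM in A1(c+) at pH 8.3 and 166.9 and 156.8 CPM in T6(c−), and the antenna sum is highest in A1(c+) at pH 8.3.

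Genes of cell division were lower in A1(c+). They are expressed in dividing cells, which a young leaf holds at its base. Of 24 measured genes, 18 were lower (75.0% beside 10.6% over all genes) and 0 higher, and the median of the list was -1.96. The lower genes comprised 12 of 16 genes of mitosis and 6 of 8 of DNA replication. KNOLLE, the syntaxin of the cell plate, had 0.683 and 0.726 CPM in A1(c+) and 10.3 and 11.3 CPM in T6(c−) (log2 fold change -3.93 ± 0.74, adjusted p = 0.00307), and CDC20.1, an activator of the anaphase-promoting complex, had 0.592 and 0.646 CPM in A1(c+) and 8.07 and 10.0 CPM in T6(c−) (log2 fold change -3.86 ± 0.76, adjusted p = 0.00395). CYCB2;1, a mitotic cyclin, had 0.0557 and 0.0651 CPM in A1(c+) and 1.22 and 1.32 CPM in T6(c−) (-4.40). The A1(c+) libraries were low and close together in all 3, and the calls held without each library in turn. Other mitotic cyclins lay between, with CYCB1;2 at 1.34 and 0.806 CPM in A1(c+) and 8.01 and 10.1 CPM in T6(c−) (-3.11), CYCB2;2 at -2.89 and CYCB1;3 at -2.43 on the log2 scale. The call of CYCB1;2 was lost without A1(c+) replicate 2 or T6(c−) replicate 2, that of CYCB2;2 without any of the 4 libraries and that of CYCB1;3 without A1(c+) replicate 2 or either T6(c−) library, and quantile scaling called neither CYCB2;2 nor CYCB1;3. Of the replication genes, MCM2, a subunit of the DNA helicase, had 3.43 and 4.25 CPM in A1(c+) and 15.2 and 18.1 CPM in T6(c−) (-2.12, adjusted p = 0.0003) and PCNA1, the sliding clamp, had 2.87 and 3.77 CPM in A1(c+) and 12.3 and 15.8 CPM in T6(c−) (-2.08, adjusted p = 0.00329).

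Division genes were also lower in A1(c+) at pH 5.9, with a median of -1.37 beside -0.07 over all genes. Of the 24, 4 were DEGs there, all lower, beside 3.10% of all genes. The 16 mitosis genes summed to 38.5 and 20.9 CPM in A1(c+) and 70.1 and 86.0 CPM in T6(c−) at pH 8.3, and to 69.4 and 52.1 CPM and 142.0 and 139.9 CPM at pH 5.9. The sum was thus lower in A1(c+) at both pH values and lower at pH 8.3 than at pH 5.9 in both demes. CYCB1;1 had 10.5 and 3.58 CPM in A1(c+) and 5.17 and 7.31 CPM in T6(c−) and did not pass (adjusted p = 0.996), nor did the ribonucleotide reductase subunit TSO2 with 281 and 159 CPM in A1(c+) and 146 and 197 CPM in T6(c−). Lower division genes numbered 15 with TMM, 10 with quantile scaling, which called 1 higher, and 8 without T6(c−) replicate 2, beside 5.77%, 4.21% and 4.79% of all genes lower.

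In the main fit, genes of iron acquisition and signalling were called about as often as all genes. Of 40 measured genes, 6 were lower in A1(c+) and 1 higher, 15.0% and 2.50% beside 10.6% and 1.97% over all genes. The median was -1.14 beside -0.31. Both A1(c+) libraries lay below both T6(c−) libraries in 31, as they did in 65.7% of all genes. The fit of the 4 groups at 3 h called 21 lower and 1 higher, beside 2729 and 575 of all 18603 genes. TMM called 4 lower and 2 higher and quantile scaling 3 lower and 2 higher. NAS1, which makes the iron chelator nicotianamine, had 9.02 and 5.87 CPM in A1(c+) and 35.5 and 31.0 CPM in T6(c−) (log2 fold change -2.19 ± 0.33, adjusted p = 0.00105). The transcription factor bHLH115 had 31.8 and 31.0 CPM in A1(c+) and 83.3 and 82.5 CPM in T6(c−) (-1.40, adjusted p = 0.00149), and the ubiquitin ligase BTSL2 had 7.45 and 6.98 CPM in A1(c+) and 17.5 and 17.9 CPM in T6(c−) (-1.30), a call lost with TMM and quantile scaling. NAS1 was also a lower DEG at pH 5.9 (-1.12), as was NRAMP1 (-1.31), whereas bHLH115 (-0.99), BTSL2 (-0.43), FIT (-0.21) and MYB10 (-2.80) did not pass there. FIT, the master regulator of iron uptake in roots, had 1.49 and 1.84 CPM in A1(c+) and 3.36 and 4.02 CPM in T6(c−) (-1.15), the metal transporter NRAMP1 had 6.44 and 4.71 CPM in A1(c+) and 17.9 and 14.4 CPM in T6(c−) (-1.54) and MYB10 had 0.0962 and 0.0951 CPM in A1(c+) and 1.79 and 3.22 CPM in T6(c−) (-4.65). The FIT call was lost without T6(c−) replicate 2 and under TMM and quantile scaling, that of NRAMP1 without A1(c+) replicate 2 or T6(c−) replicate 1, and that of MYB10 without any of the 4. The higher gene was FRO6, the ferric reductase of leaf plasma membranes, with 375 and 507 CPM in A1(c+) and 93.0 and 102 CPM in T6(c−) (log2 fold change 2.16 ± 0.34, adjusted p = 0.00124), already higher at pH 5.9 with 361 and 453 CPM in A1(c+) and 148 and 149 CPM in T6(c−).

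The genes best known for tracking iron shortage had higher values at pH 8.3 than at pH 5.9 in both demes. bHLH38, an Ib bHLH factor, had 18.8 and 40.8 CPM in A1(c+) and 129 and 194 CPM in T6(c−) at pH 8.3 and 0.295 and 0.193 CPM in A1(c+) and 18.6 and 19.5 CPM in T6(c−) at pH 5.9. IMA1, an iron-signalling peptide, had 22.2 and 21.7 CPM in A1(c+) and 87.2 and 102 CPM in T6(c−) at pH 8.3 and 0.365 and 0.327 CPM in A1(c+) and 9.31 and 9.90 CPM in T6(c−) at pH 5.9. Both were far lower in A1(c+) at pH 5.9, and neither passed at pH 8.3 (adjusted p = 0.272 and 0.266). Of the 40 genes of the list 8 were lower DEGs at pH 5.9, beside 3.10% of all genes. They included bHLH38, bHLH39, IMA1, IMA2, IMA3 and IRT1. In A1(c+) bHLH38 was 6.86 and IMA1 5.99 log2 units higher at pH 8.3 than at pH 5.9 (adjusted p = 0.0231 and 0.0194), whereas T6(c−) had 3.05 and 3.30 (adjusted p = 0.495 and 0.38). In the fit of 4 groups 4 of the 40 genes passed the interaction towards A1(c+) and 1 towards T6(c−). Over all genes the shares were 0.199% and 2.39%. In the main fit 0 passed.

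Ferritins, the iron stores of the plastid, went the other way. FER1 had 29.5 and 18.1 CPM in A1(c+) and 47.8 and 50.1 CPM in T6(c−) at pH 8.3 and 3304 and 2241 CPM in A1(c+) and 966 and 958 CPM in T6(c−) at pH 5.9. The 4 ferritins together had 52.2 and 33.0 CPM in A1(c+) and 74.5 and 80.5 CPM in T6(c−) at pH 8.3, and 3656 and 2483 CPM in A1(c+) and 1085 and 1077 CPM in T6(c−) at pH 5.9. Their summed level was thus lower at pH 8.3 in every library of both demes, and the order of the demes at pH 5.9 was the reverse of that at pH 8.3. At pH 5.9, however, 0 of 8 iron storage genes were DEGs between the demes. The interaction had an unadjusted limma p below 0.05 for 1 of the 8 in the main fit, where 0 passed. In the fit of 4 groups 2 of the 8 passed, both towards T6(c−), beside 2.39% of all genes. In the comparison at pH 8.3, FER2, the seed ferritin, was the only DEG of 8 iron storage genes, at 0.218 and 0.125 CPM in A1(c+) and 1.93 and 1.76 CPM in T6(c−) (-3.48, adjusted p = 0.0082), and it was lost when A1(c+) replicate 2 or either T6(c−) library was left out.

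Some salicylate genes were lower in A1(c+), by calls that rested on single libraries. Salicylate is the hormone of defence against biotrophic pathogens. Of 29 measured genes, 6 were lower and 0 higher (20.7% beside 10.6% over all genes), with a median of -1.12 beside -0.31. Both A1(c+) libraries lay below both T6(c−) libraries in 22, as they did in 65.7% of all genes. The fit of the 4 groups at 3 h called 15 lower and 1 higher, beside 2729 and 575 of all 18603 genes. PR1, a secreted defence protein used as a marker of the pathway, had 33.4 and 7.04 CPM in A1(c+) and 316 and 361 CPM in T6(c−) (log2 fold change -4.46 ± 1.55, adjusted p = 0.0478). DMR6, which degrades salicylate, had 43.6 and 39.9 CPM in A1(c+) and 117 and 129 CPM in T6(c−) (-1.56), and the cell wall kinase WAK1 had 193 and 132 CPM in A1(c+) and 461 and 382 CPM in T6(c−) (-1.39). NIMIN1 and NIMIN2, which bind the salicylate receptor NPR1, had -2.26 and -1.76 on the log2 scale, and the transcription factor WRKY54 had -1.12. The A1(c+) libraries were themselves far apart in PR1, although the groups did not overlap. Without T6(c−) replicate 2, 0 of the 29 were DEGs, and TMM called 1 lower and 2 higher. At pH 5.9, 0 of the 29 were DEGs, and PR1 had 24.3 and 27.1 CPM in A1(c+) and 168 and 174 CPM in T6(c−).

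Of 37 measured immune receptors, 2 were higher in A1(c+) and 2 lower (5.41% each, beside 1.97% and 10.6% over all genes). RPP5 (chr4:9538233-9544755, minus strand), an intracellular receptor for downy mildew, had 215 and 222 CPM in A1(c+) and 2.93 and 9.07 CPM in T6(c−) (log2 fold change 5.41 ± 0.89, adjusted p = 0.00156) and 230.3 and 255 CPM in A1(c+) and 2.46 and 2.62 CPM in T6(c−) at pH 5.9. RLP42 is given above. RLP1, a receptor-like protein that senses a bacterial pattern, had 1.36 and 1.25 CPM in A1(c+) and 5.32 and 5.92 CPM in T6(c−) (-2.11, adjusted p = 0.00154), and RLP30 had 1.45 and 1.06 CPM in A1(c+) and 3.93 and 2.90 CPM in T6(c−) (-1.45, adjusted p = 0.0206), a call lost without A1(c+) replicate 2 or either T6(c−) library and under TMM and quantile scaling. WRR4, a receptor for white rust, had 24.5 and 29.2 CPM in A1(c+) and 0.971 and 5.03 CPM in T6(c−) and 25.0 and 31.7 CPM in A1(c+) and 0.808 and 0.930 CPM in T6(c−) at pH 5.9, and passed at pH 5.9 but not at pH 8.3 (adjusted p = 0.0584). T6(c−) replicate 2 was the higher library of its group for RPP5 and WRR4. These receptors belong to families of similar copies that vary between populations, so that the assignment of reads is uncertain.

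Genes that bear on proton export, malate and bicarbonate differed little. Of 28 measured genes, 3 were lower in A1(c+) and 0 higher (10.7% beside 10.6%). NADP-ME3, a cytosolic malic enzyme, had 0.00506 and 0.0150 CPM in A1(c+) and 1.97 and 2.34 CPM in T6(c−) (log2 fold change -7.94 ± 1.37, adjusted p = 0.00197), with 1 read in A1(c+) in all and a read ratio of 429 (95% counting interval 76.5 to 17000), against 0.911 and 0.864 CPM in A1(c+) and 0.623 and 0.616 CPM in T6(c−) at pH 5.9. The phosphoenolpyruvate carboxylase PPC3 had 3.48 and 4.60 CPM in A1(c+) and 8.75 and 12.2 CPM in T6(c−) (-1.37) and the proton pump AHA7 had 0.785 and 0.706 CPM in A1(c+) and 1.57 and 2.19 CPM in T6(c−) (-1.32), and both calls were lost when any library was left out and under TMM and quantile scaling, while PPC3 was a lower DEG at pH 5.9 as well (-1.84). AHA2 and AHA1, the main plasma membrane proton pumps, had 81.1 and 70.6 CPM in A1(c+) and 139 and 139 CPM in T6(c−) and 426 and 368 CPM in A1(c+) and 585 and 526 CPM in T6(c−), with log2 fold changes of -0.87 and -0.49. Of 5 sodium genes 0 passed. The sodium exporter SOS1 had 14.7 and 14.9 CPM in A1(c+) and 22.4 and 21.3 CPM in T6(c−) (-0.56, adjusted p = 0.0124) and NHX2 had 144 and 146 CPM in A1(c+) and 114 and 102 CPM in T6(c−) (adjusted p = 0.423).

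In the nutrient lists few genes passed, as over all genes, of which 1.97% were higher and 10.6% lower. The share lower was 9.09% for phosphate, 13% for nitrogen, 5.56% for sulfur, 7.69% for copper and superoxide dismutase and 3.7% for starch. Only phosphate had a higher gene (4.55%). For phosphate 1 of 22 was higher and 2 lower. MGD2, which makes galactolipids when phosphate is short, had 5.94 and 6.44 CPM in A1(c+) and 2.08 and 2.45 CPM in T6(c−) (1.46, adjusted p = 0.00256), the exporter PHO1 had 2.17 and 3.29 CPM in A1(c+) and 10.8 and 13.8 CPM in T6(c−) (-2.19, adjusted p = 0.00272) and the phospholipase NPC4 had 0.0354 and 0.0150 CPM in A1(c+) and 1.08 and 0.979 CPM in T6(c−) (-5.48, adjusted p = 0.000802). All 3 were called without each library in turn. For nitrogen 3 of 23 were lower. ASN1, an asparagine synthetase known to rise in carbon-starved and darkened leaves, had 0.329 and 0.636 CPM in A1(c+) and 80.4 and 128 CPM in T6(c−) (log2 fold change -7.79 ± 2.05, adjusted p = 0.0157), nitrate reductase NIA2 had 643 and 570.5 CPM in A1(c+) and 1293 and 1254 CPM in T6(c−) (-1.07) and the ammonium transporter AMT1;1 had 99.2 and 80.2 CPM in A1(c+) and 195 and 168 CPM in T6(c−) (-1.02). The ASN1 libraries did not overlap, but its call was lost when any library was left out. For sulfur 1 of 18 passed, the sulfate transporter SULTR2;2 with 3.54 and 3.20 CPM in A1(c+) and 7.28 and 6.22 CPM in T6(c−) (adjusted p = 0.0378), a call lost when any library was left out. For copper and superoxide dismutase 1 of 13 passed, FSD3 with 21.5 and 21.8 CPM in A1(c+) and 41.6 and 45.9 CPM in T6(c−) (-1.01), and for starch 1 of 27, APL4 with 23.1 and 25.4 CPM in A1(c+) and 82.4 and 85.7 CPM in T6(c−) (-1.80), both lost with TMM and quantile scaling and when any library was left out. The NIA2 call was lost without A1(c+) replicate 2 or either T6(c−) library and that of AMT1;1 without A1(c+) replicate 2 or T6(c−) replicate 1. At pH 5.9 MGD2 (1.08), PHO1 (-2.72) and AMT1;1 (-1.07) were DEGs in the same direction, and NPC4 (-1.44), ASN1 (-4.97), NIA2 (-0.85), SULTR2;2 (-0.60), FSD3 (-0.50) and APL4 (-0.70) did not pass.

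Glucosinolates, the sulfur-rich defence compounds of the Brassicaceae, gave few calls. Of 30 genes of the aliphatic branch 1 was higher and 1 lower (3.33% each, beside 1.97% higher and 10.6% lower over all genes). MYB76, a regulator of the branch, had 3.84 and 4.11 CPM in A1(c+) and 0.206 and 0.562 CPM in T6(c−) (3.55, adjusted p = 0.0258), lost when any library was left out, and FMOGS-OX3, which oxidises the side chain, had 55.3 and 55.0 CPM in A1(c+) and 189 and 169.6 CPM in T6(c−) (log2 fold change -1.70 ± 0.34, adjusted p = 0.00467). Of 16 indolic genes 0 passed, and MYB34 with 13.0 and 14.7 CPM in A1(c+) and 29.7 and 23.9 CPM in T6(c−) had the lowest p (-0.95, adjusted p = 0.00242), its log2 fold change being within 1. GSTF9, the most abundant of them, had 1108 and 885 CPM in A1(c+) and 1349 and 1240.2 CPM in T6(c−). Of 13 genes of breakdown and transport, 2 were lower (15.4% beside 10.6% over all genes). The transporter GTR2 had 25.8 and 17.8 CPM in A1(c+) and 103 and 70.5 CPM in T6(c−) (-1.99, adjusted p = 0.00303). The nitrile specifier protein NSP5 had 79.5 and 65.6 CPM in A1(c+) and 237 and 288 CPM in T6(c−) (-1.85, adjusted p = 0.0164). The NSP5 call was lost without A1(c+) replicate 2 or either T6(c−) library. GTR2 and FMOGS-OX3 were also lower at pH 5.9 (-1.72 and -1.35), MYB76 was also higher there (3.55), and NSP5 did not pass (-0.49). Of 35 jasmonate genes 1 passed, the synthesis enzyme AOC1 with 339 and 242 CPM in A1(c+) and 145 and 93.2 CPM in T6(c−) (1.30, adjusted p = 0.0495), a call lost when any library was left out and under quantile scaling. The share higher was 2.86% beside 1.97% over all genes. At pH 5.9, 5 of the 35 were higher, AOC1 among them (2.16), beside 2.70% of all genes.

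Among genes of cold and water stress, 2 galactinol synthases were higher in A1(c+). They make the first compound on the way to raffinose, a protective sugar. GOLS2 had 199 and 208 CPM in A1(c+) and 53.3 and 51.6 CPM in T6(c−) (log2 fold change 1.96 ± 0.34, adjusted p = 0.00202) and GOLS3 had 8.44 and 6.68 CPM in A1(c+) and 0.880 and 0.886 CPM in T6(c−) (log2 fold change 3.09 ± 0.66, adjusted p = 0.00596), without overlap and called without each library in turn. At pH 5.9 GOLS2 had 47.5 and 68.7 CPM in A1(c+) and 26.3 and 28.0 CPM in T6(c−) and was no DEG. The cold regulators CBF2 and CBF3 had 9.32 and 11.3 CPM in A1(c+) and 0.649 and 0.701 CPM in T6(c−) and 31.6 and 28.4 CPM in A1(c+) and 5.47 and 5.95 CPM in T6(c−) and did not pass (adjusted p = 0.088 and 0.109). In all 2 of 10 cold genes were higher (20%) and 0 lower, beside 1.97% and 10.6% over all genes. Of the abscisic acid and osmotic list 7.14% were higher and 7.14% lower. Of 14 genes of abscisic acid and osmotic stress, P5CS1, which makes proline, was higher with 1435 and 1551 CPM in A1(c+) and 796 and 686 CPM in T6(c−) (1.01, adjusted p = 0.0038), and DREB2A was lower with 4.09 and 3.88 CPM in A1(c+) and 10.9 and 13.2 CPM in T6(c−) (-1.59, adjusted p = 0.0491). The DREB2A call was lost when any library was left out and under TMM and quantile scaling, and that of P5CS1 without A1(c+) replicate 2 or T6(c−) replicate 2 and under quantile scaling. Of 9 heat shock genes 0 passed, HSP70-4 with 34.5 and 22.4 CPM in A1(c+) and 48.0 and 47.5 CPM in T6(c−) and HSP15.7 with 1.68 and 1.34 CPM in A1(c+) and 2.21 and 2.80 CPM in T6(c−) among them.

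Of 23 clock genes 1 was higher and 2 lower (4.35% and 8.7%, beside 1.97% and 10.6% over all genes). CHE, a repressor of the morning gene CCA1, had 102 and 96.8 CPM in A1(c+) and 39.8 and 47.2 CPM in T6(c−) (1.20, adjusted p = 0.038), LUX, of the evening complex, had 7.64 and 6.66 CPM in A1(c+) and 20.8 and 20.5 CPM in T6(c−) (-1.53, adjusted p = 0.00804) and the activator RVE8 had 20.7 and 17.3 CPM in A1(c+) and 41.8 and 38.4 CPM in T6(c−) (-1.08, adjusted p = 0.00603). CHE lost its call when any library was left out. LUX and RVE8 lost theirs with TMM and quantile scaling, LUX also without A1(c+) replicate 2 or either T6(c−) library, and RVE8 also without A1(c+) replicate 2. At pH 5.9 all 3 were within a log2 fold change of 1 (0.88, -0.60 and -0.21). Of 19 flowering genes 0 passed. VRN2 had 13.7 and 12.8 CPM in A1(c+) and 21.1 and 21.2 CPM in T6(c−) (-0.67, adjusted p = 0.00626), and SVP, a repressor of flowering, had 154 and 147 CPM in A1(c+) and 112 and 108 CPM in T6(c−) (0.45, adjusted p = 0.0399).

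**Figure D5:**
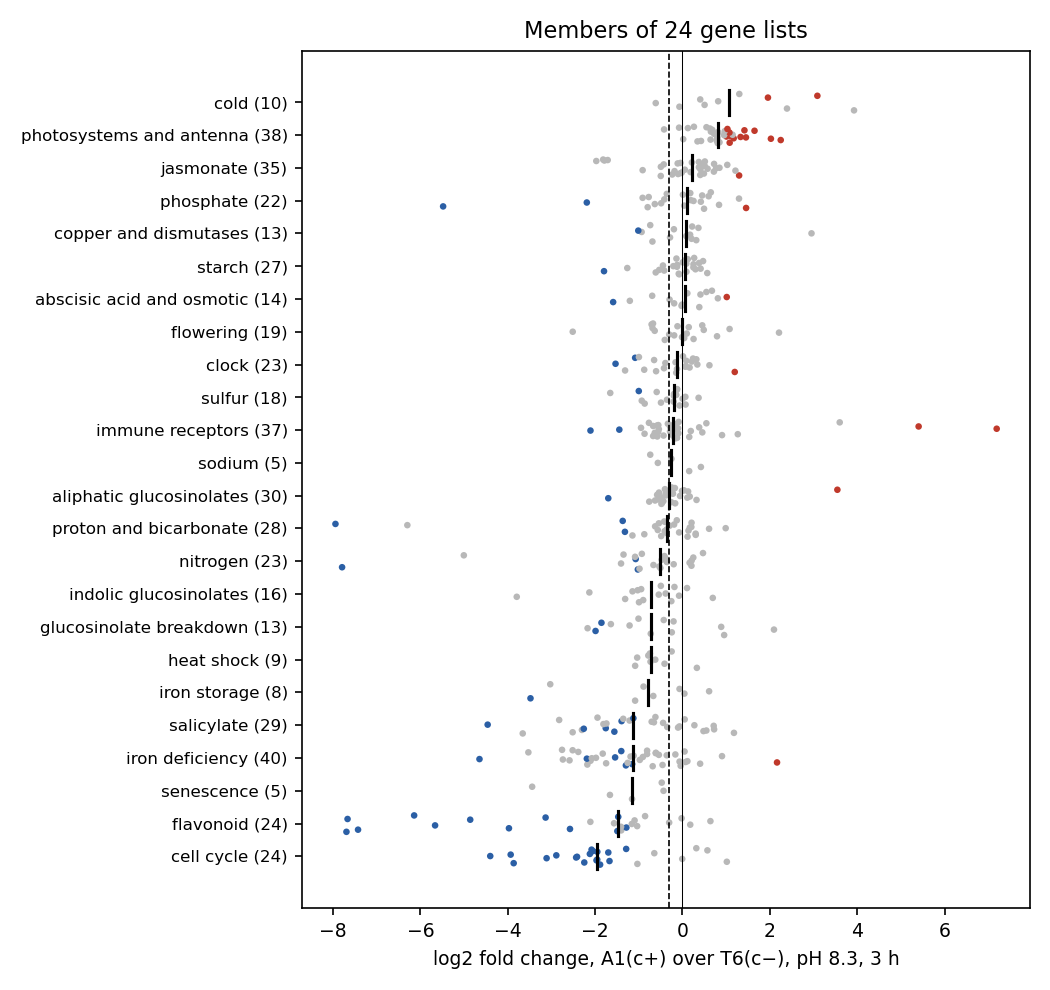
Log2 fold change of A1(c+) against T6(c−) at pH 8.3 and 3 h for the measured genes of 24 lists, with a point for each gene, higher DEGs in red, lower DEGs in blue, a bar at the median of each list and a dashed line at the median of all genes (-0.31). The photosystem list lies to the right with 12 higher and 0 lower DEGs, and the flavonoid and cell cycle lists lie to the left with 12 and 18 lower and 0 higher DEGs.

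Over the 26 lists, 86 of 514 measured genes were DEGs, 22 higher and 64 lower, beside 1.97% higher and 10.6% lower over all genes. Markers of other organs were looked at beside these results. Of 7 root markers 2 were measured, and PYK10, a root and hypocotyl glucosidase, was lower in A1(c+) with 6.01 and 6.43 CPM in A1(c+) and 192 and 190.5 CPM in T6(c−) (-4.94, adjusted p = 0.0107), so that the root sum was 6.13 and 7.70 CPM in A1(c+) and 193.1 and 192.2 CPM in T6(c−). At pH 5.9 PYK10 had 36.1 and 34.5 CPM in A1(c+) and 198 and 197 CPM in T6(c−). Of 4 flower markers 2 were measured, with sums of 3.62 and 0.791 CPM in A1(c+) and 2.67 and 3.33 CPM in T6(c−), and PISTILLATA (PI) was lower (-4.45, adjusted p = 0.0116). The calls of PYK10 and PI were lost without A1(c+) replicate 2 or either T6(c−) library. The 5 measured senescence genes summed to 201.7 and 138.2 CPM in A1(c+) and 413.1 and 292.2 CPM in T6(c−) without a DEG, SAG13 having 27.4 and 3.81 CPM in A1(c+) and 154 and 80.0 CPM in T6(c−) and PAO 115 and 93.6 CPM in A1(c+) and 158 and 124 CPM in T6(c−). Photosystem transcripts were 188100 and 203700 CPM in A1(c+) and 113600 and 118700 CPM in T6(c−). The part of these differences in the results above was not tested.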

How the data were processed

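Leaves of 2 demes were sequenced by the authors as unstranded paired-end libraries. Per the study's methods, clean reads were aligned with TopHat 2.0.12 and Bowtie 2.2.3 and tested with DESeq 1.18.0. The submitters' processing notes name TAIR10, FastQC, Trim Galore, Salmon, DESeq2 and DESeq 1.18.0. Which of these tools gave the deposited values is not stated, and the annotation release is not given in the sources used here. The deposited table holds log2 CPM of 18603 genes in 24 columns, each a biological replicate of 3 technical replicates. CPM printed here is 2 to that power and includes an offset of 0.5 reads. Reads recovered from it were whole within 0.05 reads in 100% of values under 1000 reads. Libraries held 63.5 to 120.6 M reads, and 98.8 to 107.7 M in the 4 compared.

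Log2 CPM was fitted with limma 3.58.1 (R 4.3.3) with mean-variance trend over 10 groups, leaving out A1(c+) bic at 3 h, of which replicate 2 held transcripts of the other deme, and T6(c−) bic at 48 h, of which both did. T6(c−) replicate 2 of pH 8.3 and of bic at 3 h and replicate 1 of pH 8.3 at 48 h also held such transcripts and stayed in the fit, with an alternative without them. P-values were adjusted by the Benjamini-Hochberg method over all genes, and a DEG had an adjusted p below 0.05 and a log2 fold change beyond 1, as in the study. Errors are standard errors (SE) of the fit, n = 2 per group. The members and lists were chosen with earlier results of these data known. Named genes were the 10 largest DEGs per direction with at least 5 CPM and no overlap, up to 6 DEGs per list and direction (or, without a DEG, the lowest-p and most abundant gene), the 3 lowest interaction p-values and the 5 most abundant DEGs; other genes named were chosen after their values were seen. Alternatives changed scaling, pseudocount, filters, groups, trend, block and libraries. On simulated data 5 of 50 genes changed by 1.5 log2 units, 17 of 50 by 2, 45 of 50 by 3 and 50 of 50 by 4 were recovered. There were 0 false calls. Only 200 genes were changed there, far fewer than were called here, so that the rates need not hold for the real comparison. Of 98 named genes 28 overlap another annotated gene, whose reads cannot be told apart.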

Additional observations from a re-analysis of the deposited data

Results flagged for a closer look

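Transcripts that separated the demes at pH 5.9 also appeared in libraries of the other deme outside the comparison. Replicate 2 of the group labelled A1(c+) bic, 3 h, held 11 of the 23 T6(c−) genes above 1 CPM. Of the 19 A1(c+) genes, T6(c−) bic, 3 h, replicate 2 held 10, T6(c−) bic, 48 h, replicate 1 held 12 and T6(c−) bic, 48 h, replicate 2 held 9. The pH 5.9 libraries of the other deme held 0 in each case, by the rule that chose the genes. All 7 A1(c+) genes found in T6(c−) pH 8.3, 3 h, replicate 2 were also above 1 CPM in that first library and in replicate 1 of the group labelled T6(c−) pH 8.3, 48 h. Where these transcripts came from was not tested.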

How the results depend on the processing

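At pH 8.3 and 3 h, the DEG count of 2338 became 732 with a mean of at least 10 CPM, 5239 with no fold change limit, 999 with a log2 fold change over 2, 1335 without the 3 libraries carrying transcripts of the other deme (chosen after seeing the data), and 1016 to 1836 without each library in turn. The counts without A1(c+) replicate 2 (1016), T6(c−) replicate 1 (1207) and T6(c−) replicate 2 (1110) were the low ones. With only the groups compared the count was 3189, and with the 4 groups at 3 h it was 3304. Without the pH 8.3 groups at 48 h, a choice made after seeing the data, it was 3065. Leaving out the T6(c−) groups at pH 5.9, whose replicates differed little, gave 1673 (273 higher, 1400 lower), with 67 DEGs in the gene lists. In that fit 15 named genes lost their call, among them PR1, NIMIN1, NIMIN2, WRKY54, RLP30, DREB2A, APL4, PPC3, AHA7, MYB76 and CHE. Filtered counts tested fewer genes, and the cause of the other changes was not tested. At pH 5.9, 1079 became 2178 with only the groups compared, 2148 with the 4 groups at 3 h, 1891 without the pH 8.3 groups at 48 h (also chosen after seeing the data), 405 with the 10 CPM filter, 2420 with no limit, 475 with a limit of 2 and 381 to 844 without each library. At 48 h, 383 became 0 with only the groups compared (limma), 152 with all 12 groups, 244 without the T6(c−) groups at pH 5.9, 129 with the filter, 620 without the 3 libraries, 604 with no limit, 205 with a limit of 2 and 733 to 1138 without each library. Interaction DEGs went from 0 to 481 with only the groups compared and with the 4 groups, 156 without the 48 h groups, 1 with no trend, 1 without the 3 libraries and 0 to 2 without each library. DEGs shared by both pH values went from 730 to 1539, 1591 and 1385 with only the groups compared, the 4 groups and without the 48 h groups, to 254 with the filter, 1704 with no limit, 341 with a limit of 2 and 309 to 588 without each library. DEGs in the gene lists went from 86 to 151, 155 and 130 under the same 3 group choices, to 47, 54 without the 3 libraries, 131, 39 and 42 to 66.

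Same-numbered replicates deviated together with a correlation of 0.10 at pH 8.3 and 3 h, 0.01 at pH 5.9 and 0.32 at 48 h, and nothing in the labels pairs them. With the replicate block the counts were 2299 (354 higher, 1945 lower), 1035, 348, 0, 711 and 83 in the order above. Of 2019 values of named genes under 21 alternatives, 2018 kept their direction and 268 lost the threshold, and HSP15.7 turned to 0.069 under quantile scaling. Of 88 called named genes, 51 were called without each library in turn and 47 of them also under TMM and quantile scaling. With 2 libraries per group, changes of 1.5 and 2 log2 units were mostly missed on simulated data in which 200 genes were changed. More genes were called in the real comparison, so that this rate need not hold there.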
